A study of Homo sapiens with 6 samples.

Results

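The mitochondrial genome encodes subunits of respiratory complexes I, III and IV and of ATP synthase, and the mRNAs of 10 such subunits were followed here: MT-ND1, MT-ND2, MT-ND4 and MT-ND5 of complex I, MT-CYB of complex III, MT-CO1, MT-CO2 and MT-CO3 of complex IV, and MT-ATP6 and MT-ATP8 of ATP synthase. They were taken by gene name from a table of 51537 genes that held 37 rows of the mitochondrial genome, and all 10 were found and passed the filter on low values. The libraries came from H3122, a human lung adenocarcinoma cell line that carries an EML4-ALK kinase fusion. There were 3 libraries of crizotinib-resistant H3122 cells, raised by exposure to rising crizotinib, an inhibitor of ALK and MET, from 0.1 to 10 µM, and 3 control libraries of H3122 cells. All 6 were poly(A)-enriched RNA from cells of the same line, and the sources used here do not say whether replicates were separate cultures or whether the resistant cells were 1 clone, so p-values measure no more than how these libraries vary, and that variation may be technical. Levels are in TPM, a length-scaled level that sums to 1000000 in each library. Log2 changes, given with their standard error, are those of TPM + 1 in resistant libraries relative to control libraries.

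Mitochondrial DNA is transcribed from both strands into long precursors, from which rRNAs, tRNAs and mRNAs are cut, mostly at the tRNAs that lie between them. The rRNAs lie next to the heavy-strand promoter, and the mRNAs described here all follow on the same strand. Most mitochondrial mRNAs have almost no untranslated sequence and receive a short poly(A) tail, which in several of them completes the stop codon. The encoded proteins form the cores of complexes whose other subunits are made from nuclear genes, so both genomes supply each complex.

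The 3′ ends of the mRNAs show where that completion is needed. Of the 10, 5 have a complete stop codon in the GENCODE 29 transcript (GRCh38, heavy-strand genes listed on the + strand of chromosome M), and 5 end with only 1 or 2 of its bases. The last 24 bases are shown for 5 of them, with the bases of the stop codon in capitals, at chrM:4239-4262 for MT-ND1, chrM:9967-9990 for MT-CO3, chrM:12114-12137 for MT-ND4, chrM:14125-14148 for MT-ND5 and chrM:7422-7445 for MT-CO1.
MT-ND1: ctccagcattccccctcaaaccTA
MT-CO3: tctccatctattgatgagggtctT
MT-ND4: acatcattaccgggttttcctctT
MT-ND5: ctaaccctactcctaatcacaTAA
MT-CO1: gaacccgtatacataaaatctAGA
MT-CO1 ends in AGA, which closes the reading frame in human mitochondria.

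MT-ATP8 and MT-ATP6 share a transcript and overlap in different reading frames. The first 46 bases of MT-ATP6 are the last 46 of the 207 bases of MT-ATP8, which leaves 161 bases of MT-ATP8 outside the overlap. The stretch chrM:8527-8581 holds it, with the start codon of MT-ATP6 and the stop codon of MT-ATP8 in capitals.
MT-ATP6 start and MT-ATP8 end: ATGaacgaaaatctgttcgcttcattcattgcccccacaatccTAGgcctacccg
How the authors' counting treated reads in the overlap is not given in the sources used here, so the levels of this pair are uncertain. MT-ATP6 also shares 1 base with MT-CO3, and MT-ND4 shares 7 with MT-ND4L.

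The 10 mRNAs held 14.0%, 12.4% and 13.6% of all TPM in the resistant libraries, against 16.96%, 13.6% and 14.4% in the control libraries (replicates 1 to 3). Their summed level was 133376 ± 8452 TPM in resistant and 149879 ± 17599 TPM in control libraries (SD, n = 3 each), a ratio of 0.890. The groups overlapped, and the difference did not pass a two-sided exact permutation test (p = 0.3), which cannot go below 0.1 with 3 against 3. Control replicate 1 was the highest of the 6 libraries for 8 of the 10 mRNAs, and resistant replicate 2 the lowest for 7. Without control replicate 1 the ratio was 0.953. All 37 mitochondrial rows, rRNAs and tRNAs included, held 19.7% to 21.8% of TPM in resistant and 19.4% to 23.7% in control libraries. In bulk RNA, fewer cells of a type and less RNA per cell cannot be told apart, and a share of TPM also moves with the level of all other transcripts.

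The values rested on many reads. TPM times gene length, divided by the value of 1 read in each library, gave whole reads within 0.01 for every mitochondrial row above 0. That value was the smallest mitochondrial one, over a small whole number chosen so that the most mitochondrial rows came out whole. The whole values are thus partly a result of this choice. The 10 mRNAs rested on 1206618 to 1412076 reads in resistant and 1229407 to 1648398 reads in control libraries. MT-ATP8 rested on 534, 567 and 631 reads in resistant and on 370, 241 and 503 reads in control libraries, and MT-ND5, next lowest in reads, on at least 53235. For MT-ATP8 in control replicate 2, the exact Poisson 95% interval was 212 to 273 reads, which covers counting error only. Library totals, estimated with GENCODE lengths, were 29856927 to 36695581 reads.

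**Figure D1:**
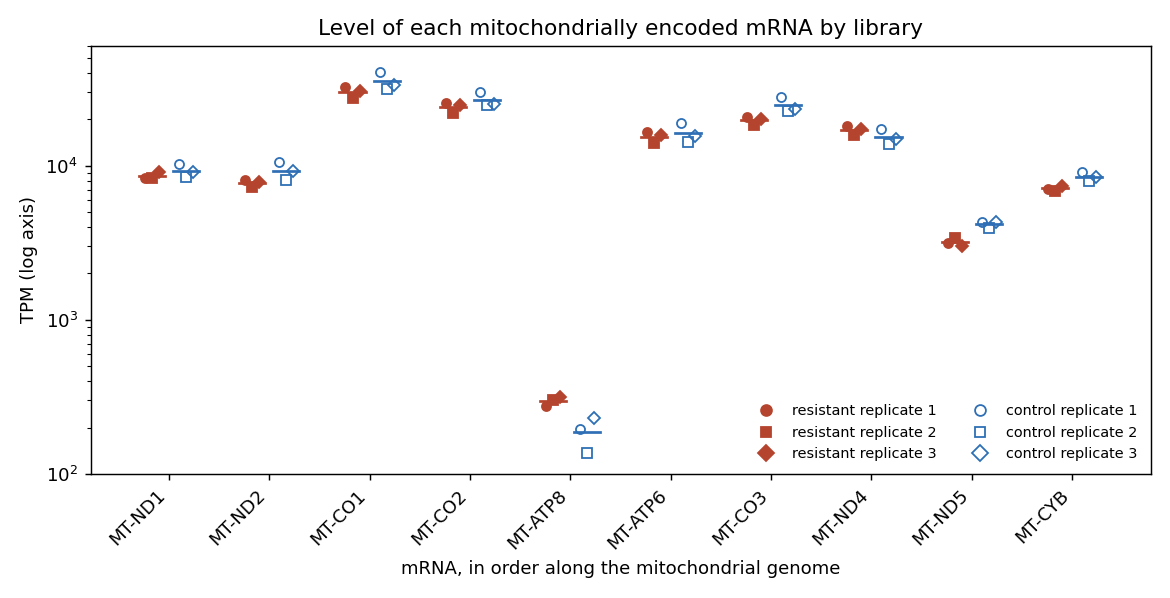
TPM of the 10 mRNAs (log axis) in genome order, with resistant libraries left of control libraries, a marker shape per replicate and a line at each group mean. MT-CO1 is highest and MT-ATP8 lowest in all 6 libraries, and control replicate 1 is the highest library for 8 of the 10.

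Within every library the mRNAs kept nearly the same order. MT-CO1, MT-CO2 and MT-CO3 ranked 1, 2 and 3 in all 6, and MT-CYB, MT-ND5 and MT-ATP8 ranked 8, 9 and 10. MT-ND4 ranked 4 in the resistant libraries, where MT-ATP6 ranked 5, and ranked 5 in the control libraries, where MT-ATP6 ranked 4. MT-ND1 and MT-ND2 shared ranks 6 and 7, and their control means of 9291 ± 899 and 9289 ± 1201 TPM did not differ beyond their spread.

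Across the table the test called 7815 of 16077 genes, 48.6% of them, 24% higher and 24.7% lower, so a called gene is common in this comparison. Among the 10 mRNAs 5 were called, 4 lower and 1 higher, a share near that background. Their log2 changes ran from -0.39 to 0.68 with a median of -0.19, beside a median of -0.0044 over all genes tested. With TPM rescaled without mitochondrial rows, 3 fell and 1 rose, against 49.6% of all genes called. Leaving out resistant replicate 2 left 2 lower and 0 higher, leaving out resistant replicate 3 left 0 higher, and leaving out control replicate 1 gave 2 higher. Groups did not overlap in TPM for 5 of the 10, against 57.9% of all genes tested. All adjusted p-values for single genes are from limma with Benjamini-Hochberg adjustment over all genes.

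Complex I pumps protons while it oxidises NADH, and its mitochondrially encoded subunits form most of the membrane arm. MT-ND5, the subunit at the far end of that arm, was at 3159, 3396 and 3032 TPM in resistant libraries, against 4342, 3951 and 4307 TPM in control libraries. Every resistant library was below every control library, and MT-ND5 fell by 0.39 ± 0.06 on the log2 scale (adjusted p = 0.000948), the lowest log2 change among the 10. MT-ND4, another antiporter-like subunit of the arm, was at 18013, 15818 and 17308 TPM in resistant and 17437, 13906 and 14856 TPM in control libraries. These groups overlapped and the change did not pass (log2 0.15 ± 0.09, adjusted p = 0.197). Without control replicate 1 it did pass, higher in resistant libraries (log2 0.24, adjusted p = 0.0200).

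MT-ND2, also an antiporter-like subunit, was at 8036, 7314 and 7840 TPM in resistant and 10533, 8137 and 9195 TPM in control libraries. It fell with an adjusted p just under the threshold (log2 -0.26 ± 0.09, adjusted p = 0.0492), and the call was lost under 10 of the 14 other settings tried. Among them were leaving out any of the 3 resistant libraries or control replicate 1 or 3, with adjusted p-values of 0.0809 to 0.133. MT-ND1, which lies at the junction with the arm that oxidises NADH, was at 8348, 8309 and 9144 TPM in resistant and 10263, 8490 and 9119 TPM in control libraries. The groups overlapped and the change did not pass (log2 -0.11 ± 0.07, adjusted p = 0.260). MT-ND4 over MT-ND5, neighbours on the genome, came to 570%, 466% and 571% in resistant and 402%, 352% and 345% in control libraries. The ratio was thus higher in every resistant library (exact permutation p = 0.1, the smallest that 3 against 3 allow). This ratio was not planned, and it restates the opposite changes of the pair given above, so its p-value is no separate support. Of other ratios taken, MT-CO1 over MT-ND5 overlapped between groups (exact permutation p = 0.2). MT-CO3 over MT-ATP6 did not overlap and was lower in resistant libraries (exact permutation p = 0.1).

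Complex III passes electrons to cytochrome c, and MT-CYB is cytochrome b, its only mitochondrially encoded subunit. It was at 7123, 6867 and 7392 TPM in resistant libraries, against 9105, 7990 and 8465 TPM in control libraries. The groups did not overlap, and MT-CYB fell by 0.26 ± 0.05 on the log2 scale (adjusted p = 0.00632). Without control replicate 1 it fell by 0.21 (adjusted p = 0.0130).

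Complex IV, cytochrome c oxidase, reduces oxygen, and MT-CO1 to MT-CO3 encode its core. MT-CO3 was at 20711, 18329 and 20030 TPM in resistant libraries, against 27890, 22574 and 23450 TPM in control libraries. The groups did not overlap, and MT-CO3 fell by 0.32 ± 0.09 on the log2 scale (adjusted p = 0.0176); without resistant replicate 2 its adjusted p came to 0.0518. MT-CO1, which holds heme groups and a copper where oxygen is reduced, was at 32532, 27607 and 30383 TPM in resistant and 40748, 31554 and 33678 TPM in control libraries. MT-CO2, which accepts electrons from cytochrome c, was at 25532, 21867 and 24674 TPM in resistant and 30177, 24876 and 25235 TPM in control libraries. For MT-CO1 and MT-CO2 the groups overlapped and the changes did not pass (log2 -0.22 ± 0.10, adjusted p = 0.117, and -0.15 ± 0.09, adjusted p = 0.193).

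ATP synthase makes ATP from the proton gradient, MT-ATP6 forms part of its proton channel, and MT-ATP8 is a small membrane subunit beside it. MT-ATP8 was at 274, 302 and 315 TPM in resistant libraries, against 197, 137 and 231 TPM in control libraries. Every resistant library was above every control library, and MT-ATP8 rose by 0.68 ± 0.18 on the log2 scale (adjusted p = 0.0192). Leaving out resistant replicate 2 ended the call (adjusted p = 0.0643), as did leaving out resistant replicate 3 (adjusted p = 0.0689). MT-ATP6 was at 16472, 14113 and 15892 TPM in resistant and 18914, 14177 and 15701 TPM in control libraries, which overlapped (log2 -0.06 ± 0.11, adjusted p = 0.671). MT-ATP8 thus stood at 1.67%, 2.14% and 1.98% of MT-ATP6 in resistant and 1.04%, 0.969% and 1.47% in control libraries, although the 2 lie on the same transcript. MT-ND4L, which shares a transcript with MT-ND4, stood at 80.0% to 88.0% of it in resistant and 82.9% to 88.2% in control libraries. The part of the overlap in the low level of MT-ATP8 was not tested.

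**Figure D2:**
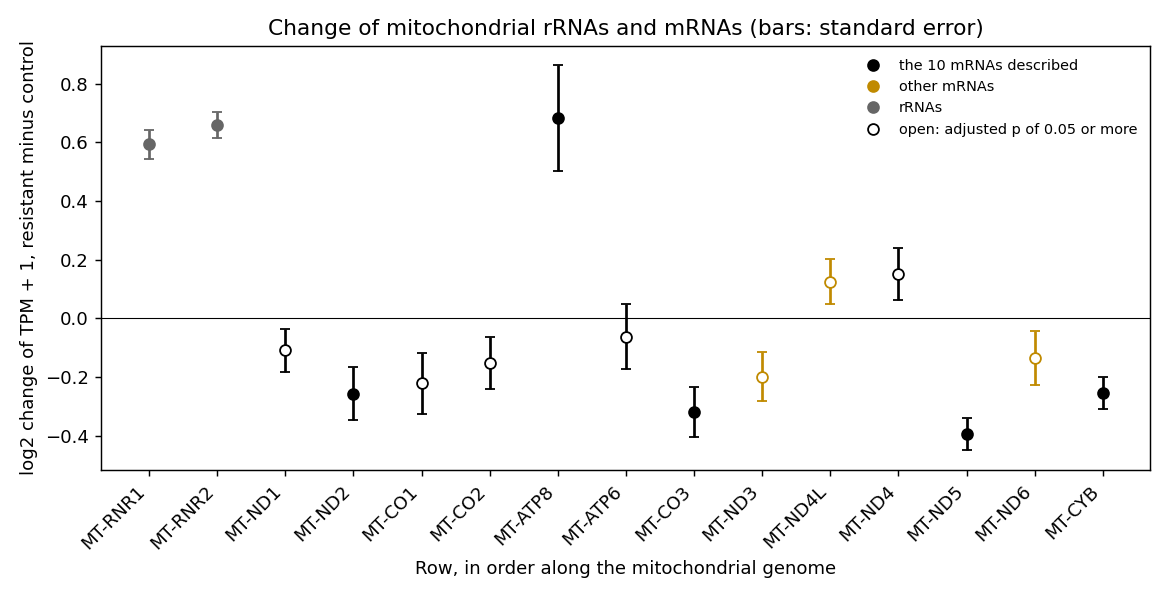
Log2 change of TPM + 1 (resistant minus control, with standard error) for the mitochondrial rRNAs and mRNAs in genome order; filled points have an adjusted p below 0.05. MT-RNR1, MT-RNR2 and MT-ATP8 are higher in resistant libraries, MT-ND2, MT-CO3, MT-ND5 and MT-CYB lower, and the other rows have open points.

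Shares within the 10 mRNAs take out the level of the whole group, in which control replicate 1 stood apart. MT-ND4 took 12.8%, 12.8% and 12.7% of the summed TPM in resistant libraries, against 10.3%, 10.2% and 10.3% in control libraries. The difference of 2.51 percentage points was the highest of the 10, beside SDs of 0.0625 points in resistant and 0.0301 points in control libraries. These SDs are of 3 libraries each, whose variation may be technical, so they do not measure how far chance could reach. MT-CO3 took 14.8%, 14.8% and 14.7% in resistant libraries, against 16.4%, 16.6% and 16.3% in control libraries, a difference of -1.68 points. Leaving out any library kept the difference between 2.47 and 2.53 points for MT-ND4 and between -1.77 and -1.59 points for MT-CO3. Within all mitochondrial rows, rRNAs included, the difference for MT-ND4 was 0.944 points and that for MT-CO3 -2.12 points.

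Shares of 4 other mRNAs also did not overlap between groups. MT-ATP6 took 11.4% to 11.7% in resistant and 10.4% to 11.2% in control libraries, and MT-ATP8 took 0.196% to 0.243% and 0.101% to 0.160% in the same groups. MT-CO1 took 22.3% to 23.2% in resistant and 23.2% to 24.0% in control libraries, so that the nearest libraries were almost level. MT-ND2 took 5.73% to 5.90% in resistant and 5.99% to 6.38% in control libraries. Shares of MT-CO2, MT-CYB, MT-ND1 and MT-ND5 overlapped. Each of the 6 that did not overlap had an exact permutation p of 0.1, the smallest possible, and 0.167 after adjustment over the 10. Relative to the summed 10, 41.6% of all genes tested did not overlap between groups, against 57.9% in TPM. Genes outside the 10 take on the scatter of that sum, while the 10 are part of it. The 41.6% is thus no like background for the 6 shares.

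By complex, the complex IV mRNAs took 54.7% to 56.2% of the summed TPM in resistant and 57.1% to 58.3% in control libraries. Those of complex I took 26.8% to 28.1% in resistant and 25.1% to 26.0% in control libraries, and those of ATP synthase 11.6% to 11.9% and 10.5% to 11.3% in the same groups (exact permutation p = 0.1 for each). These sums restate the shares above and do not show a complex moving as a whole. In complex I, MT-ND4 differed by 2.51 points and MT-ND1 by 0.252, but MT-ND2 by -0.393 and MT-ND5 by -0.411. In ATP synthase, MT-ATP6 differed by 0.782 points and MT-ATP8 by 0.0976. In complex IV, MT-CO3 and MT-CO1 differed by -1.68 and -0.930 points and MT-CO2 by 0.131. MT-CYB, alone for complex III, took 5.08% to 5.54% in resistant and 5.37% to 5.88% in control libraries, which overlapped.

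A fit of all genes relative to the summed 10 moved the median log2 change of all genes to 0.14, and of 16100 genes it called 31.2%, 22.6% higher and 8.64% lower. Of the 10, it called MT-ATP8 higher (log2 0.85 ± 0.17, adjusted p = 9.85e-06) and none lower. MT-ND4 was at 0.31 ± 0.14 (adjusted p = 0.0730) and MT-ND5 at -0.23 ± 0.15 (adjusted p = 0.259). Standard errors of the other members in this fit were 0.13 to 0.15. Genes outside the 10 carry the scatter of the summed 10 in this fit, and limma draws standard errors toward those of other genes. Neither the standard errors nor the calls of this fit, that of MT-ATP8 included, measure the spread of a single share. MT-CO3, whose share had SDs of 0.0330 and 0.183 points, was at -0.16 ± 0.14 (adjusted p = 0.422).

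**Figure D3:**
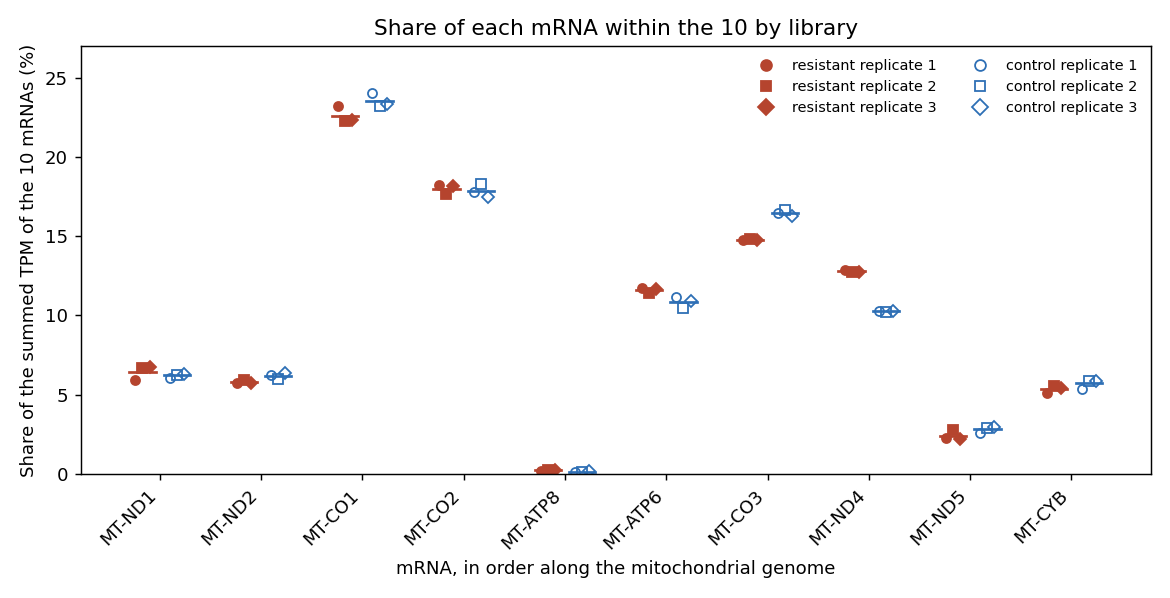
Share of each mRNA in the summed TPM of the 10 (percent), resistant libraries left of control libraries, with a line at each group mean. MT-ND4 is near 12.8% in resistant and 10.3% in control libraries, MT-CO3 near 14.8% and 16.4%, with replicates almost on top of each other.

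The rRNAs of the mitochondrial genome were called higher. MT-RNR2, the large mitochondrial rRNA, was at 18209 ± 982 TPM in resistant and 11515 ± 82.6 TPM in control libraries (log2 0.66 ± 0.04, adjusted p = 3.19e-05). MT-RNR1, the small rRNA, was at 3496 ± 153 TPM in resistant and 2317 ± 97.8 TPM in control libraries (log2 0.59 ± 0.05, adjusted p = 6.70e-05). Together they came to 16.0%, 16.7% and 16.2% of the summed 10 mRNAs in resistant libraries, against 8.15%, 10.2% and 9.57% in control libraries. The rRNA sum of control replicate 1, 13815 TPM, lay close to the 13875 and 13807 TPM of the other control libraries, while its mRNA sum was 169607 TPM, against 135793 and 144238 TPM in those. Poly(A) enrichment keeps only the captured part of the rRNA, so these are not total rRNA levels.

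**Figure D4:**
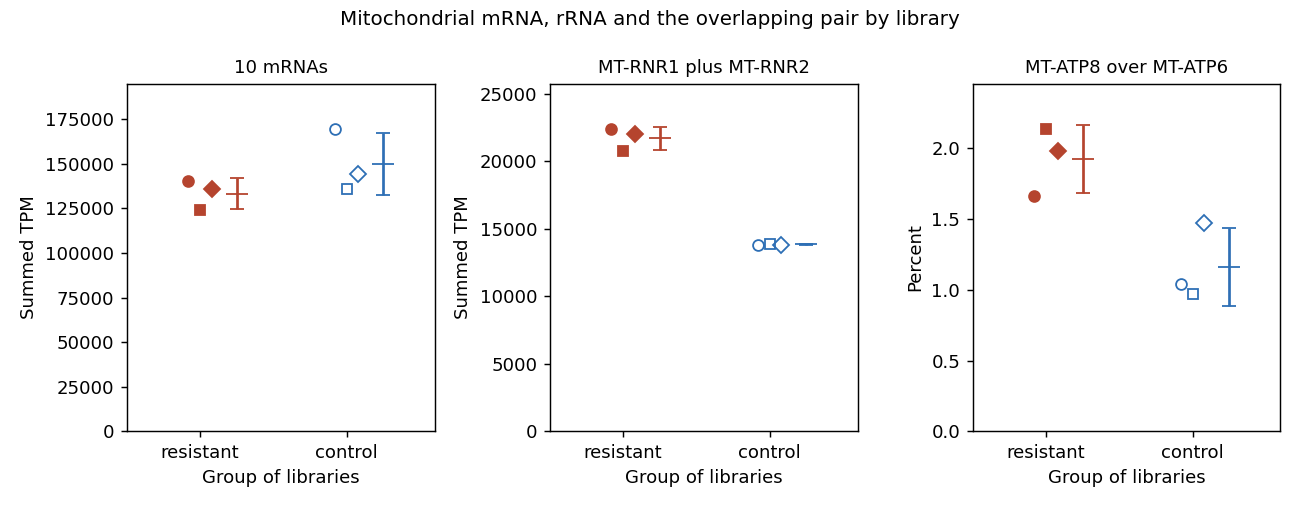
Summed TPM of the 10 mRNAs, summed TPM of MT-RNR1 and MT-RNR2, and MT-ATP8 in percent of MT-ATP6, by library (axes start at 0; points are libraries, and the bars beside them are the mean ± SD of 3 libraries). The mRNA sums of the groups overlap, and the rRNA sums and the MT-ATP8 percentages do not.

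The other mRNAs of the mitochondrial genome were not called. MT-ND3 was at 10887 ± 158 TPM in resistant and 12564 ± 1614 TPM in control libraries (log2 -0.20, adjusted p = 0.0839), and MT-ND4L at 14165 ± 489 and 13043 ± 1439 TPM in the same groups (log2 0.12, adjusted p = 0.221). MT-ND6, the mRNA of the opposite strand, was at 3101 ± 93.7 TPM in resistant and 3426 ± 466 TPM in control libraries (log2 -0.14, adjusted p = 0.261). Whether the authors' counting used strand is not known, so the MT-ND6 row may hold reads of both strands. All 13 mRNAs summed to 161529 ± 8986 TPM in resistant and 178912 ± 20984 TPM in control libraries, a ratio of 0.903.

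Of 22 tRNA rows, 10 fell, 3 rose and 9 did not pass the test, beside 24.7% of all genes that fell and 24% that rose. Of the 10 that fell, 8 held under 100 reads in every library. On the strand of the 10 mRNAs, 9 tRNA rows fell and 0 rose, with log2 changes down to -2.80 for MT-TW, which held 0, 1 and 0 reads in resistant and 8, 4 and 5 reads in control libraries. MT-TH, between MT-ND4 and MT-TS2, was at 55.8 ± 11.3 TPM in resistant and 140 ± 40.0 TPM in control libraries (log2 -1.29, adjusted p = 0.00323). The rows that rose, MT-TN, MT-TC and MT-TP, lie on the opposite strand, and MT-TN was at 11645 ± 488 TPM in resistant and 8845 ± 710 TPM in control libraries (log2 0.40, adjusted p = 0.00156). These rows are 59 to 75 bases long, 16 of the 22 held under 100 reads in every library, and whether the authors' counting used strand is not given in the sources used here, so reads of the 2 strands cannot be told apart.

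Near-identical copies of mitochondrial genes in the nuclear genome can take some of the reads. Of 316 rows that GENCODE names as pseudogenes of the 10, 232 were at 0 in all libraries and 6 had a mean of at least 5 TPM in either group, all in a stretch of chromosome 1 from 629062 to 634922. MTATP6P1 was at 1836 ± 49.5 TPM in resistant and 2184 ± 376 TPM in control libraries, 11.8% and 13.4% of MT-ATP6 in those groups. MTND2P28 was at 672 ± 22.1 TPM in resistant and 815 ± 56.9 TPM in control libraries, 8.69% and 8.77% of MT-ND2. The other 4 stood at no more than 0.450% of their mitochondrial gene in resistant and 0.519% in control libraries. Of these, MTCO2P12, MTND1P23 and MTCO3P12 fell by 1.76, 1.27 and 1.24 on the log2 scale, and MTCO1P12 was not called (log2 -0.41, adjusted p = 0.0651). MTND2P28 was also called lower (log2 -0.28, adjusted p = 0.00540), and MTATP6P1 was not called (log2 -0.24, adjusted p = 0.127). Beside these calls, 24.7% of all genes tested fell.

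MTATP6P1 was 98.5% identical to MT-ATP6 over 681 bases, with 10 differences and identical runs of up to 141 bases. The start of each shows how little separates them; the only base that differs in the window is in capitals, in MT-ATP6 (chrM:8527-8586) and in MTATP6P1 (chr1:633696-633755, + strand).
MT-ATP6: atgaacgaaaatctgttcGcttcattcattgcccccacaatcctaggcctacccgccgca
MTATP6P1: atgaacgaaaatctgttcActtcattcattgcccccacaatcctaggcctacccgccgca
Adding the pseudogene rows to their mitochondrial gene changed no direction of any share within the 10. The share of MT-CO1, however, then overlapped between groups (difference -0.894 points, exact permutation p = 0.2).

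Each complex also needs subunits from nuclear genes, and these were set beside the mitochondrial ones. The mitochondrial mRNAs of complex III stood at 3.23, 2.84 and 3.21 times the summed TPM of its nuclear subunits in resistant libraries, against 3.88, 3.23 and 3.57 times in control libraries. The lowest control library and the highest resistant library were almost level, and the log2 ratio differed by -0.20 (exact permutation p = 0.1, the smallest possible; 0.4 adjusted over 4 complexes). For complex IV the ratio was 18.1 to 22.5 in resistant and 20.6 to 28.5 in control libraries. It was 6.01 to 7.22 and 5.77 to 8.01 for complex I, and 4.43 to 5.50 and 4.55 to 6.64 for ATP synthase, in the same order of groups. In these 3 complexes the groups overlapped (exact permutation p = 0.5, 1 and 0.7). Of the nuclear subunits of complex I, chosen after their values were seen, NDUFA7, NDUFA13 and NDUFV2 averaged 0.405, 2.47 and 2.62 TPM in resistant libraries, beside 1209 TPM for NDUFS5. How the authors' counting treated such rows is not given in the sources used here, so the height of these ratios is uncertain. Of 18 nuclear genes listed for ATP synthase 16 were found, so its sum lacks ATP5MPL and ATP5MD.

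**Figure D5:**
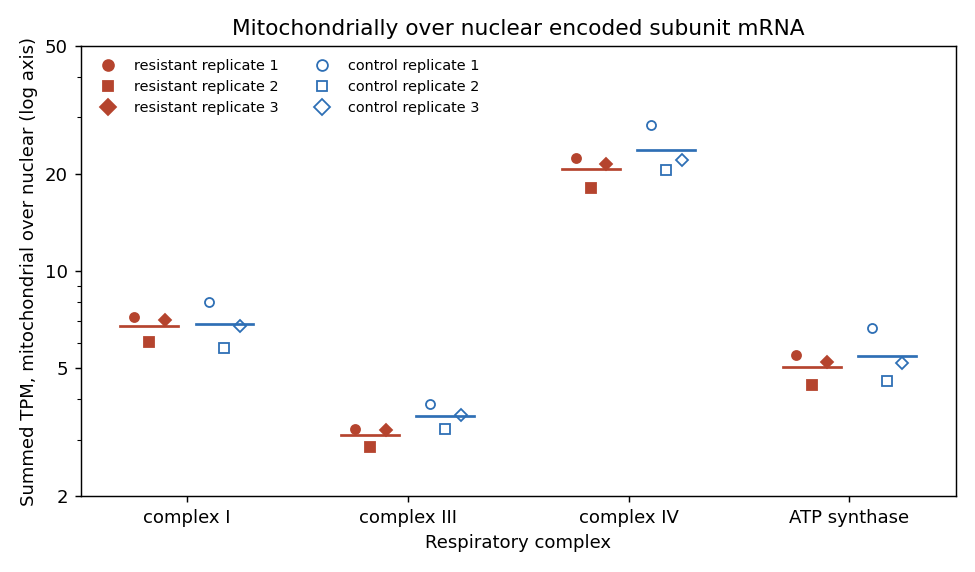
Summed TPM of the mitochondrially encoded mRNAs over the summed TPM of the nuclear subunits of each complex (log axis), resistant libraries left of control libraries, with a line at each group mean. Only for complex III do the groups not overlap, by a narrow margin, and control replicate 1 is highest in every complex.

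Nuclear subunit mRNAs moved in both directions. Of 36 tested for complex I, 7 rose and 10 fell (median log2 0.04), and NDUFA1, an accessory subunit, fell to 352 ± 33.2 TPM in resistant libraries, against 549 ± 69.4 TPM in control libraries. NDUFB2, NDUFA5 and NDUFA6 were also called, at log2 -0.71, -0.49 and 0.47. Of 9 for complex III, 3 rose and 1 fell (median log2 0.10); the last was UQCRH, the hinge protein, at 324 ± 23.9 TPM in resistant and 575 ± 24.6 TPM in control libraries (log2 -0.83, adjusted p = 4.40e-05). UQCR10, UQCRQ and UQCR11 rose by 0.24, 0.18 and 0.15. Of 12 for complex IV, 1 rose and 2 fell (median log2 -0.08), with COX7B at log2 -0.73, COX7A2 at -0.30 and NDUFA4 at 0.13, and the number that rose was 0 on leaving out any library except control replicate 2. Of 16 for ATP synthase, 5 rose and 2 fell (median log2 0.03), and ATP5MC1, which encodes a rotor ring subunit, rose to 162 ± 6.11 TPM in resistant libraries, against 91.0 ± 7.82 TPM in control libraries. ATP5PO rose by 0.56, while ATP5MF and ATP5PB fell by 0.59 and 0.48. The others that rose, chosen after their values were seen, were ATP5PD, ATP5PF and ATP5F1E, at 0.38, 0.36 and 0.27. Leaving out control replicate 3 left 3 that rose. These shares of called genes, 47.2%, 44.4%, 25% and 43.8% in that order, lay below the 48.6% of all genes.

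Among genes that transcribe mitochondrial DNA, the one with the lowest log2 change was TFAM, which packages the DNA and activates its promoters. TFAM fell to 22.9, 19.8 and 19.9 TPM in resistant libraries, against 35.9, 43.9 and 40.9 TPM in control libraries (log2 -0.91 ± 0.09, adjusted p = 1.51e-04). POLRMT, the mitochondrial RNA polymerase, chosen after its values were seen, was at 72.7, 80.2 and 79.2 TPM in resistant and 71.3, 66.6 and 67.0 TPM in control libraries (log2 0.18, adjusted p = 0.0270). TEFM, an elongation factor, rose by 0.48 and MTERF1, a termination factor, fell by 0.44, both on a mean of at most 5.59 TPM. MRPL12, a ribosomal protein also linked to transcription, rose by 0.32. MTERF4, also chosen after its values were seen, fell by 0.22. In all, 3 of 10 rose and 3 fell (median log2 0.04). Leaving out control replicate 3 left 1 in each direction, and leaving out resistant replicate 2 or control replicate 2 left 1 that fell.

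Genes that handle the transcripts had calls in both directions. Of 17 for stability, polyadenylation and decay, 3 rose and 5 fell (median log2 -0.05). SLIRP, which with LRPPRC stabilises mitochondrial mRNAs, rose to 157 ± 8.08 TPM in resistant libraries, against 128 ± 8.54 TPM in control libraries. LRPPRC was at log2 -0.11 (adjusted p = 0.341). SUPV3L1, the helicase of the RNA degradation complex, fell by 0.38, and FASTKD3 and FASTKD5, of a family of mitochondrial RNA-binding proteins, fell by 0.36 and 0.32. The others called were DHX30 and TBRG4, both at 0.16, and GRSF1 and PDE12, at -0.20 and -0.19, named with LRPPRC after their values were seen. Leaving out resistant replicate 2 or 3 or control replicate 3 left 1 that rose and 3 that fell. Of 5 genes of tRNA excision 1 rose and 1 fell, and TRMT10C, a subunit of mitochondrial RNase P, rose by 0.24, while PTCD1, chosen after its values were seen and at 1.28 ± 0.223 TPM in resistant and 2.18 ± 0.154 TPM in control libraries, fell by 0.48. Leaving out resistant replicate 3 left 0 in each direction, leaving out resistant replicate 2 or control replicate 2 left 0 that fell, and leaving out control replicate 3 gave 2 that rose and 0 that fell.

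Replication, control and assembly genes went both ways. Of 14 for replication and the nucleoid, 5 rose and 2 fell (median log2 0.09). POLG, the catalytic subunit of the mitochondrial DNA polymerase, rose to 59.0 ± 1.90 TPM in resistant libraries, against 39.2 ± 1.29 TPM in control libraries, and ATAD3A, a nucleoid-associated ATPase, rose by 0.44. TOP1MT, a mitochondrial topoisomerase, and SSBP1, the single-stranded DNA-binding protein, fell by 0.65 and 0.38. LONP1, MGME1 and DGUOK, chosen after their values were seen, rose by 0.32, 0.31 and 0.17. Of 8 nuclear regulators of mitochondrial biogenesis, 1 rose and 4 fell (median log2 -0.11), and the transcription factors NRF1, ESRRA, GABPB1 and YY1 fell by 0.37, 0.33, 0.29 and 0.20. PPRC1, a coactivator chosen after its values were seen, rose by 0.16, a call lost without resistant replicate 2 or 3 or control replicate 2 or 3. Of 29 for membrane insertion and assembly, 9 rose and 7 fell (median log2 0.04). Among assembly factors of complexes III and IV, COA3 rose by 0.85 and UQCC2 by 0.55, while COA7 fell by 0.89 and COX19 by 0.53. The 5 shares of called genes for transcription, stability, excision, replication and control were 60%, 47.1%, 40%, 50% and 62.5%, and that for assembly was 55.2%, all beside 48.6% of all genes. TFAM and SUPV3L1 lie on chromosome 10 and UQCRH and COA7 on chromosome 1, and all fell. ATP5MF and PTCD1, which fell, overlap on chromosome 7, and ATP5PO and ATP5PF, which rose, lie on chromosome 21. Other called genes on chromosomes 10, 1 and 7 rose, among them PPRC1, ATAD3A and NDUFA4. Whether genes moved with a stretch of their chromosome was not tested.

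Few nuclear genes followed the summed 10 closely across the 6 libraries, which share the groups and are no independent points. Of 10985 genes averaging 5 TPM or more, the highest Pearson correlations of log2 values were those of AC093110.3 (0.961), HNRNPKP4 (0.958), RPL39P36 (0.937), RP11-134G8.7 (0.890) and ATP5S (0.884), given as a description. By their symbols, HNRNPKP4 and RPL39P36 are pseudogenes. ATP5S was at 19.4 to 20.3 TPM in resistant and 20.5 to 21.4 TPM in control libraries.

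As a check of the labels, epithelial markers summed to 17790 to 19087 TPM in resistant and 17096 to 17651 TPM in control libraries, and of the 7 only NKX2-1, a lung lineage factor, was under 1 TPM in all libraries. Fibroblast markers summed to at most 0.391 TPM, immune markers to 5.16 to 6.43 TPM and endothelial markers to 5.79 to 8.94 TPM over all libraries, with DCN, LUM, LYZ and KDR at 0 throughout.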

How the data were processed

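The authors deposited 1 table of TPM, per the file headers 1 column per library. Per the submitters' processing notes HISAT2 was used; of its version, the counter, build, annotation and strand setting, nothing is given in the sources used here. TPM keeps no depth, so reads were rebuilt for mitochondrial rows as TPM times GENCODE 29 length over the value of 1 read. Genes reaching 1 TPM in 3 or more libraries entered the fit (16077), and log2(TPM + 1) was fitted on group with limma 3.58.1 (R 4.3.3, trend, robust estimation with statmod 1.5.0), two-sided, with calls at an adjusted p below 0.05. The fit was run on simulated reads with far fewer changed genes than were called here and the same fixed dispersion for all genes. That run does not measure error rates in these data. Single sums, shares and ratios used exact permutation tests over libraries. Sequences and coordinates are from GENCODE 29 (GRCh38); the authors' build is not known. List genes were matched by gene ID through a symbol table. Pseudogenes were aligned with Biopython 1.88. Named genes were all 10 mRNAs, the other mitochondrial rows, pseudogenes with at least 5 TPM, up to 4 called genes a list (5 TPM or more on average where higher, by size of change), and the 5 nuclear genes closest to the summed level; genes named outside this rule are marked as chosen after their values were seen. The mRNAs and lists were chosen with earlier results of these data known. Libraries of a group differed by more than counting noise (chi-square per gene 4.05 to 11.9, on rebuilt reads of which 67.2% to 67.9% of values above 0 were whole), so none was treated as a copy of another; this does not show separate cultures.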

Additional observations from a re-analysis of the deposited data

How the results depend on the processing

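MT-ND5, MT-CYB and MT-CO3 stayed called lower in every setting on TPM or its rescaled forms that kept all 6 libraries. Relative to the summed 10 mRNAs 0 were called lower, with standard errors that do not measure the spread of single shares. That scaling turned the log2 changes of MT-CO2, MT-ATP6 and MT-ND1 to 0.0106, 0.101 and 0.0554, and shares within all mitochondrial rows turned their differences to -1.06, -0.192 and -0.235 percentage points. Deviations of same-numbered libraries correlated at -0.0583, -0.0017 and -0.0163. The summed level of the 10 mRNAs, however, was highest in replicate 1 and lowest in replicate 2 of both groups. These values do not settle whether replicate numbers pair the libraries. With the replicate number as a block, 2 of the 10 were called higher, with MT-ND4 added (adjusted p = 0.0339), and MT-CO1 and MT-CO2 were added as lower (0.0106 and 0.0455, all by limma); the block left 1 gene lower for transcription, 3 for stability, 0 for tRNA excision, and 0 higher for complex IV. With no filter on low values, 1 rose for transcription, 3 fell for stability, 0 rose for excision and 0 for complex IV, the last also without trend or robust estimation. A filter of 5 TPM gave 2 higher and 0 lower for excision. Leaving out each library gave 0 to 2 of the 10 higher and 2 to 4 lower, a log2 change of -0.157 to 0.0512 for MT-ATP6, a share difference of -0.0563 to 0.356 points for MT-CO2, and log2 mitochondrial to nuclear ratios differing by -0.123 to 0.114 for complex I and -0.223 to 0.0493 for ATP synthase. It gave, for genes higher and lower, 1 to 3 and 1 to 4 in transcription, 1 to 4 and 3 to 6 in stability, and 0 to 2 and 0 to 1 in excision. Genes higher numbered 0 to 1 in biogenesis, 0 to 1 in complex IV and 3 to 6 in ATP synthase. The causes were not tested. With 3 libraries a group, exact tests cannot pass 0.05, and MT-ATP8 and most tRNA rows rest on few reads.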
